A study of Mus musculus with 5 samples.

Results

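10 genes of the Notch pathway, the receptors Notch1 to Notch4, the ligands Jag1, Jag2, Dll1 and Dll4, and the targets Hes1 and Hey1, were compared between Nfib-null and wild-type mammary glands of mice. They were taken by gene symbol from the 22609 genes of the deposited RPKM table, and all 10 were listed. RPKM stands for reads per kilobase of gene, scaled to library size, but the denominator used for these values is not given. The series sequenced poly(A) RNA of whole glands without lymph nodes in 5 libraries, 3 labelled Nfib-null (KO) and 2 labelled wild type, all from outbred mice on the day of parturition, within 12 hours of delivery. Nfib encodes nuclear factor I/B, and the study asks how NFIB and the prolactin-activated factor STAT5 govern pregnancy-induced expression together. The table holds 1 value per gene and group, the mean of its libraries, so that no spread between animals could be given and no test could be run. The column Nfib-WT shares its name with the wild-type titles. The column NfibFF-WC was taken as the Nfib-null group because it is the only other one, and Nfib-null glands below means that column. The labels do not say in which cells the gene was deleted or what drove the deletion, nor whether a library is 1 animal.

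Notch signalling passes between touching cells. A Jagged or Delta-like ligand on one cell binds a Notch receptor on its neighbour, ADAM proteases and then gamma-secretase cut the receptor, and the freed intracellular domain enters the nucleus. There it joins the DNA-binding protein RBPJ and a Mastermind coactivator and turns on genes such as Hes1 and Hey1, which encode repressors of the basic helix-loop-helix class. In the mammary gland the pathway is known for steering progenitor cells towards the luminal fate, and a constitutively active Notch4, first found at a mouse mammary tumour virus integration site, blocks alveolar development. Notch4 and Dll4 are known best from endothelium and Notch3 also from the mural cells of vessels.

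The promoters of Notch1, Notch3, Notch4 and Dll4 are shown because the first pair were the most abundant receptors and the second pair were the only members with a lower value in Nfib-null glands. They run from 250 bases before to 50 bases after the start of the gene, and come from RefSeq on build GRCm38.p6, whereas the expression values were made on mm9. Capitals mark matches to TTCNNNGAA, the GAS element that STAT5 and other STAT factors bind, or to TTGGC on either strand (read as GCCAA on the other), the half-site of the NFI family. The Notch1 window lies at chr2:26503773-26504072 on the minus strand, that of Notch3 at chr17:32166841-32167140 on the minus strand, that of Notch4 at chr17:34564045-34564344 on the plus strand and that of Dll4 at chr2:119325534-119325833 on the plus strand.
Notch1: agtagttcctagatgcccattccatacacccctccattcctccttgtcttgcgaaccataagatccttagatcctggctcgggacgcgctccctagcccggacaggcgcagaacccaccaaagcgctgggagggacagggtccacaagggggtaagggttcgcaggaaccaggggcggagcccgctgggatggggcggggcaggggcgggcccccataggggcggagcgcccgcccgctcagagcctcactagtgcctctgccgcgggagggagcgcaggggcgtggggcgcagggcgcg
Notch3: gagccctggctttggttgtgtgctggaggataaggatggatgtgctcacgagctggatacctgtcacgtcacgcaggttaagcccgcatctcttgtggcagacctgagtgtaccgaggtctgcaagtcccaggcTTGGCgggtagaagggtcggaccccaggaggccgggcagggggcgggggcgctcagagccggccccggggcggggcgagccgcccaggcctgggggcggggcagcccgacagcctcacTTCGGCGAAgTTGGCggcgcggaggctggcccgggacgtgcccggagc
Notch4: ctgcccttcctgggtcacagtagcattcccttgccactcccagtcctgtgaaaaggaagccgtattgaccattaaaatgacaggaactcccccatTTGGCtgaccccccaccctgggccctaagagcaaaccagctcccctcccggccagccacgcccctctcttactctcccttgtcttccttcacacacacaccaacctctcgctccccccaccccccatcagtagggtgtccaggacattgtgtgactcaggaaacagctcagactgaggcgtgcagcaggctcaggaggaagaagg
Dll4: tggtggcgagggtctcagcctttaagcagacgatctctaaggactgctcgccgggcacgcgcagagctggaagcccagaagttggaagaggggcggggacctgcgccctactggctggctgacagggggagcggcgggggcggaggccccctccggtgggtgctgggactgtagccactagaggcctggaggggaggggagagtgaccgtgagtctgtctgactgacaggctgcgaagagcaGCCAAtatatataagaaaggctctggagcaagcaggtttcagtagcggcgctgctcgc

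The Notch1 window held none of the motifs searched. In Notch3 a TTCNNNGAA match covered positions 3 to 11, counted from 1 at the start of the gene, and TTGGC was at positions 13 to 17 and at -116 to -112. These matches do not overlap each other. Notch4 held TTGGC at positions -155 to -151, and Dll4 held it on the other strand at -8 to -4. The table had promoters for 8 of the 10 members, in 9 windows, and none for Hes1 and Hey1. TTGGC stood in 5 of the 9 windows (55.6%), and in 46.7% of all 32851 promoter windows of the same length. TTCNNNGAA stood in 1 of the 9, that of Notch3, and in 8.30% of all. The full NFI palindrome, TTGGC followed after 5 bases by GCCAA, and so holding TTGGC on both strands, stood in none of the 9 and in 0.0365% of all. TGGGAA, the core that RBPJ binds, was in none of the 9 and in 25.6% of all windows. A match is a stretch of letters and does not show that a factor binds there.

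Depth was estimated from low values, as peaks in the product of value, transcript length and number of libraries within a range set by hand. Each peak was read as the step that 1 read makes. The peaks gave about 33400000, 27200000 and, from a weaker peak, 22800000 reads for the Nfib-null libraries. For the wild type they gave 17700000 and 14900000 reads. The number of peaks was set to the number of libraries, and the range limits the depths that could be found. A gene of 1 kb at 1 RPKM would hold about 83.4 reads in the Nfib-null group and 32.6 reads in wild-type glands. The epithelial markers Krt8 (337 RPKM in Nfib-null and 167 RPKM in wild-type glands) and Epcam (266 RPKM in Nfib-null and 137 RPKM in wild-type glands) were present in both columns. Nfib itself was at 55.3 RPKM in Nfib-null glands and 33.7 RPKM in wild-type glands, a log2 difference of 0.30 on the scale used below. The targeted gene was thus not lower in the column taken as Nfib-null and gives no support to that assignment, so that every direction below rests on the column names. Whether the value counts reads outside the deleted part is not stated. The summed level of 5 milk protein genes (Csn2, Csn1s1, Wap, Lalba and Glycam1) was 84639 RPKM in Nfib-null glands and 419075 RPKM in wild-type glands. In that wild-type sum, Wap and Glycam1 had the same value, 102755 RPKM, and the value of Lalba was tied with another gene. Over the genes kept, the median log2 ratio of Nfib-null to wild-type values was 0.41. Differences below are of log2(RPKM + 1) after division by a factor per column that sets this median to 0, Nfib-null minus wild type. Levels in RPKM are as deposited.

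Among the 10 members, Hes1 and Hey1 stood well above the rest in their difference, and both were at least 2-fold higher in Nfib-null glands. The remaining 8 lay within 2-fold, 6 of them higher and 2, Notch4 and Dll4, lower. Thus 2 of 10 members were at least 2-fold higher, where 6.95% of the 12511 genes that passed a minimum mean of 1 RPKM were, and 0 of 10 were at least 2-fold lower, where 5.97% of all genes were. All 10 members passed that minimum. At a limit of 1.5-fold 6 members were higher, against 17.1% of all genes, and at 4-fold 0 were, against 0.727%. The median log2 difference of the members was 0.66, beside a median of 0 that the scaling gives over all genes. With 1 value per group, a 2-fold difference is a size and not a test.

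**Figure D1:**
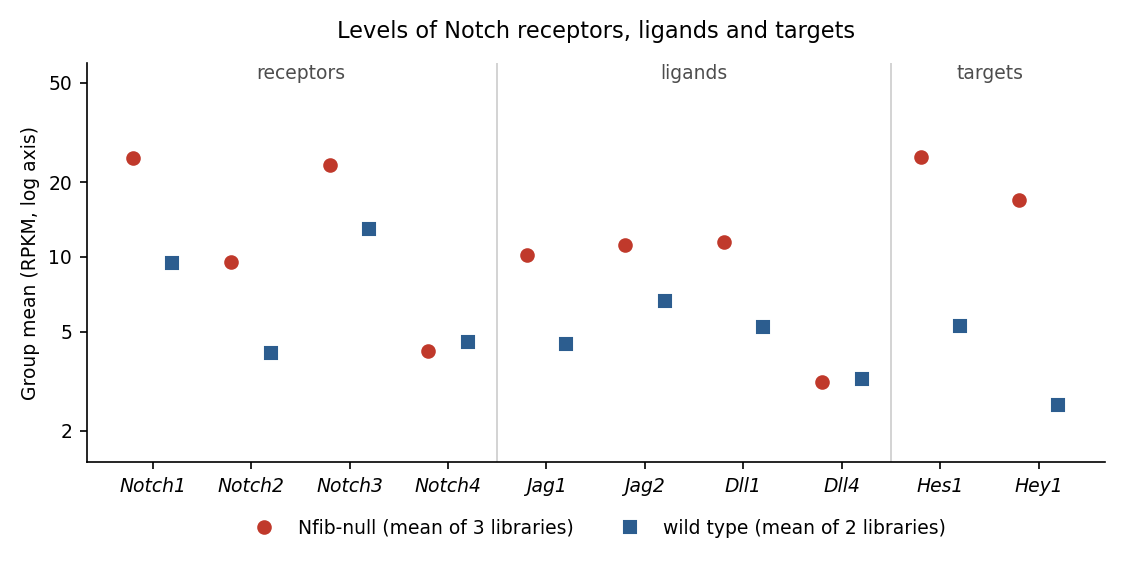
Group means in RPKM (log axis) of the 10 members, with the Nfib-null column as circles and the wild-type column as squares. Each point is the authors' mean of 3 (Nfib-null) or 2 (wild type) libraries and has no error bar because no library values were used. Hes1 (25.3 RPKM in Nfib-null and 5.30 RPKM in wild-type glands) and Hey1 (16.9 RPKM in Nfib-null and 2.55 RPKM in wild-type glands) have the widest gaps, and Notch4 and Dll4 the narrowest.

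Of the ligands, Dll1, a Delta-like ligand, was at 11.5 RPKM in Nfib-null glands and 5.22 RPKM in wild-type glands. Jag2, a Jagged ligand, was at 11.1 RPKM in Nfib-null glands and 6.64 RPKM in wild-type glands. Jag1, the Jagged ligand known from vessels and many epithelia, was at 10.2 RPKM in Nfib-null and 4.46 RPKM in wild-type glands. These 3 ligands thus had like levels within each column, with Jag2 the most abundant in wild-type glands and Dll1 in Nfib-null glands. Dll4, the ligand of sprouting endothelium, was the least abundant at 3.16 RPKM in Nfib-null glands and 3.23 RPKM in wild-type glands. After scaling, Jag1 differed by 0.68, Dll1 by 0.65, Jag2 by 0.30 and Dll4 by −0.34 on the log2 scale. All 4 ligands were within 2-fold, and Dll4 alone among them was on the lower side.

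Of the receptors, Notch1, the receptor most studied in luminal progenitors and T cells, was at 25.0 RPKM in Nfib-null glands and 9.48 RPKM in wild-type glands. Notch3 was at 23.4 RPKM in Nfib-null glands and 13.0 RPKM in wild-type glands. The order of these receptors thus differed, with Notch3 the most abundant in wild-type glands and Notch1 slightly ahead of it in Nfib-null glands. Notch2, the receptor closest to Notch1 in domain make-up, was at 9.54 RPKM in Nfib-null and 4.11 RPKM in wild-type glands. Notch4, the receptor known best from endothelium, was at 4.18 RPKM in Nfib-null glands and 4.56 RPKM in wild-type glands. Notch4 was the least abundant receptor in Nfib-null glands, while Notch2 was the least abundant in wild-type glands.

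After scaling, Notch1 differed by 0.92 on the log2 scale, just short of 2-fold, and 8.05% of all genes had a larger difference. Notch2 differed by 0.69, Notch3 by 0.42 and Notch4 by −0.43, all within 2-fold. Of all genes, 21.1% had a difference below that of Notch4 and 26.5% one below that of Dll4. Neither gene therefore was at an extreme of the table.

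**Figure D2:**
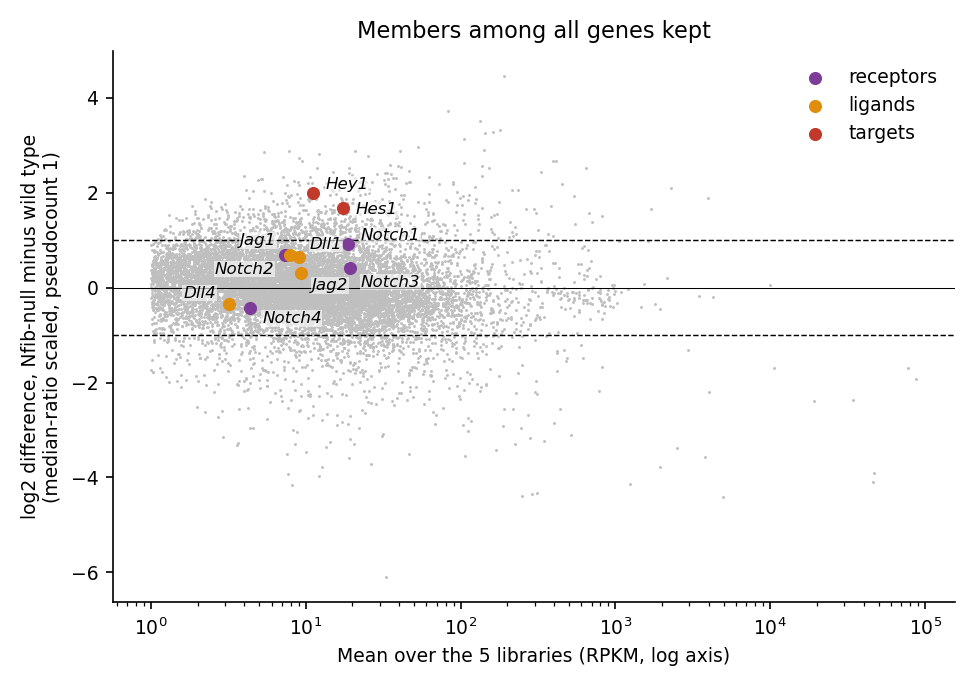
log2 difference (Nfib-null minus wild type, median-ratio scaled, pseudocount 1) against the mean over the 5 libraries in RPKM (log axis). Grey points are the 12511 genes kept, coloured points the members, and dashed lines mark 2-fold. Hes1 (1.69) and Hey1 (1.99) lie above the upper line, Notch1 (0.92) just under it, and Notch4 and Dll4 below 0.

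Shares within a column do not depend on how the columns are scaled against each other. The summed level of the 4 receptors was 62.1 RPKM in Nfib-null glands and 31.1 RPKM in wild-type glands. Notch1 made up 40.2% of it in Nfib-null glands and 30.5% in wild-type glands, and Notch3 37.7% in Nfib-null and 41.7% in wild-type glands. Notch4 made up 6.74% in Nfib-null glands and 14.7% in wild-type glands, the receptor whose share differed most in proportion. Its level per unit of Notch1 was 0.168 in Nfib-null glands and 0.481 in wild-type glands, a fold of 0.349.

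The ligands showed a like make-up. Their summed level was 36.0 RPKM in Nfib-null glands and 19.6 RPKM in wild-type glands. Dll4 made up 8.76% of it in Nfib-null glands and 16.5% in wild-type glands, and Dll1 32.0% in Nfib-null and 26.7% in wild-type glands. Per unit of Jag1, Dll4 was at 0.309 in Nfib-null glands and 0.725 in wild-type glands, and Dll1 at 1.13 in Nfib-null and 1.17 in wild-type glands. The ratio of Dll4 to Notch4, the pair known from endothelium, was 0.754 in Nfib-null glands and 0.710 in wild-type glands, so that the pair kept nearly the same proportion. Summed ligands per summed receptors were 0.580 in Nfib-null glands and 0.629 in wild-type glands.

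**Figure D3:**
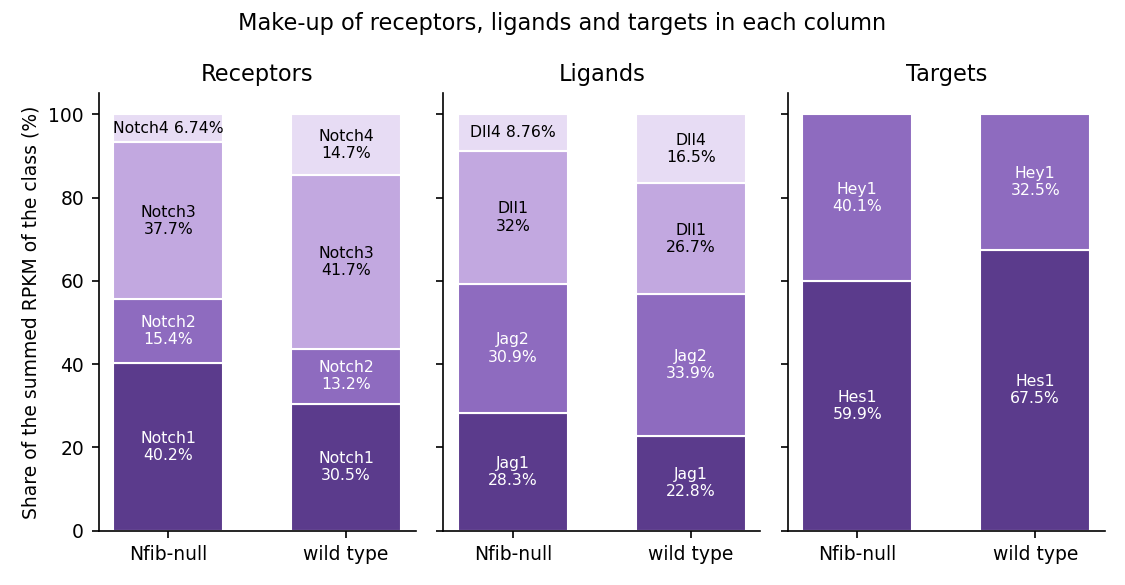
Stacked bars give the share (%) of each gene in the summed RPKM of its class, for receptors, ligands and targets, with the Nfib-null column left of the wild type. Notch4 (6.74% in Nfib-null, 14.7% in wild-type glands) and Dll4 (8.76% in Nfib-null, 16.5% in wild-type glands) take smaller shares in Nfib-null glands, and no error is shown because each bar rests on 1 group mean per gene.

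Hes1, the repressor most widely used as a readout of Notch, was at 25.3 RPKM in Nfib-null glands and 5.30 RPKM in wild-type glands, and Hey1, a related repressor known from vessels and heart, at 16.9 RPKM in Nfib-null and 2.55 RPKM in wild-type glands. Hes1 was the most abundant member in Nfib-null glands and the fourth in wild-type glands. Hey1 was the fourth in Nfib-null glands and the least abundant in wild-type glands. The log2 difference was 1.69 for Hes1 (rank 172 of 12511 from the highest) and 1.99 for Hey1 (rank 93). Without a pseudocount the scaled levels were 3.59-fold and 4.99-fold higher.

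Counting error is small beside these differences. Taking the longest GENCODE transcript as gene length, about 3094 reads lay behind Hes1 in Nfib-null glands and 254 in wild-type glands, and about 3415 in Nfib-null and 201 in wild-type glands behind Hey1. From these approximate reads, an exact (Clopper-Pearson) 95% interval for counting error alone is 3.16 to 4.09 for the scaled fold of Hes1 and 4.32 to 5.78 for that of Hey1. For Notch1 it is 1.90 to 2.06 around a fold of 1.98, for Notch4 0.640 to 0.745 around 0.690, and for Dll4 0.652 to 0.826 around 0.734. These intervals hold no variation between animals, and reads copied in amplification are not independent molecules.

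The targets also differed relative to the receptors, in a comparison that does not depend on the scaling of the columns. Summed Hes1 and Hey1 per summed receptors were 0.679 in Nfib-null glands and 0.252 in wild-type glands, a fold of 2.69. Hes1 per unit of Notch1 was 1.01 in Nfib-null glands and 0.559 in wild-type glands, and Hey1 per unit of Notch1 was 0.677 in Nfib-null and 0.269 in wild-type glands. Both targets were thus higher relative to Notch1, the receptor with the largest difference, as well as in level. Hey1 per unit of Hes1 was 0.669 in Nfib-null glands and 0.481 in wild-type glands.

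A list of 6 further genes, of the Hes and Hey families or of Notch feedback, was set beside Hes1 and Hey1. Of these, 3 passed the minimum of 1 RPKM, and 0 of the 3 were at least 2-fold higher or lower, a count near the shares of 6.95% and 5.97% over all genes. Nrarp, a target that limits the Notch nuclear complex, was at 5.66 RPKM in Nfib-null glands and 3.58 RPKM in wild-type glands (log2 0.20), and Hes6, a relative of Hes1 that antagonises it, at 13.2 RPKM in Nfib-null and 12.2 RPKM in wild-type glands (−0.28). Heyl was at 2.04 RPKM in Nfib-null and 1.51 RPKM in wild-type glands (0.011). Among those below the minimum, Hey2 was at 0.940 RPKM in Nfib-null and 0.436 RPKM in wild-type glands, Hes7 at 0.359 RPKM in Nfib-null and 0.603 RPKM in wild-type glands, and Hes5 at 0.0386 RPKM in Nfib-null glands and listed at 0 in wild-type glands. Heyl, Hey2, Hes7 and Hes5 were picked out once their values were known.

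Of 53 further genes of the pathway, 44 passed the minimum, and 2 were at least 2-fold higher in Nfib-null glands and 1 lower. Their median log2 difference was 0.081, and the shares of 4.55% and 2.27% do not exceed those over all genes given above. The higher genes were Mfng and Dtx3. Mfng encodes Manic Fringe, a glycosyltransferase that modifies Notch receptors and so alters their response to ligands, and was at 18.6 RPKM in Nfib-null glands and 5.60 RPKM in wild-type glands (log2 1.20). Dtx3, a Deltex family ubiquitin ligase, was at 43.9 RPKM in Nfib-null and 13.2 RPKM in wild-type glands (1.26). The lower gene was Mib1, the Mind bomb ubiquitin ligase that ligand-bearing cells need to internalise ligand, at 5.69 RPKM in Nfib-null and 13.9 RPKM in wild-type glands (−1.52).

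The Fringe genes differed among themselves. Rfng, Radical Fringe, was at 13.9 RPKM in Nfib-null glands and 15.0 RPKM in wild-type glands (log2 −0.48). Lfng, Lunatic Fringe, picked out once its value was known, was at 7.67 RPKM in Nfib-null and 10.5 RPKM in wild-type glands (−0.77). The Fringe gene with the lowest level in wild-type glands, Mfng, thus had the highest in Nfib-null glands.

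Of the 9 protease genes kept, which cut the receptors, 0 were beyond 2-fold in either direction, where 12.9% of all genes were, and their median was −0.073. In so small a list a count of 0 is near that share, and the same holds for the lists of 8 and 7 genes that follow. Psenen, a subunit of gamma-secretase, was at 75.3 RPKM in Nfib-null and 60.1 RPKM in wild-type glands (log2 −0.085), and Ncstn, the subunit that recruits substrates, at 54.9 RPKM in Nfib-null and 47.7 RPKM in wild-type glands (−0.20). In the nuclear complex 0 of 8 were beyond 2-fold (median 0.17). Snw1, a splicing and transcription cofactor, was at 46.0 RPKM in Nfib-null and 30.7 RPKM in wild-type glands (0.17), the acetyltransferase gene Kat2b at 16.3 RPKM in Nfib-null and 14.4 RPKM in wild-type glands (−0.22) and Rbpj, picked out once its value was known, at 17.7 RPKM in Nfib-null and 9.11 RPKM in wild-type glands (0.51).

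Of the 7 corepressor genes, whose products hold targets silent when Notch is not active, 0 were beyond 2-fold (median −0.078). Ctbp1 was at 53.6 RPKM in Nfib-null glands and 47.5 RPKM in wild-type glands (log2 −0.23), and the histone deacetylase gene Hdac1 at 29.6 RPKM in Nfib-null and 31.2 RPKM in wild-type glands (−0.47). Among 12 genes of trafficking and turnover, whose median was 0.40, Nedd4, a ubiquitin ligase, was the most abundant at 235 RPKM in Nfib-null and 126 RPKM in wild-type glands (0.49). None of the 4 further ligands and decoys passed the minimum. Dll3 was listed at 0 in both columns, Dlk1 and Dner were below 0.2 RPKM in both, and Dlk2 was at 1.04 RPKM in Nfib-null and 0.356 RPKM in wild-type glands.

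**Figure D4:**
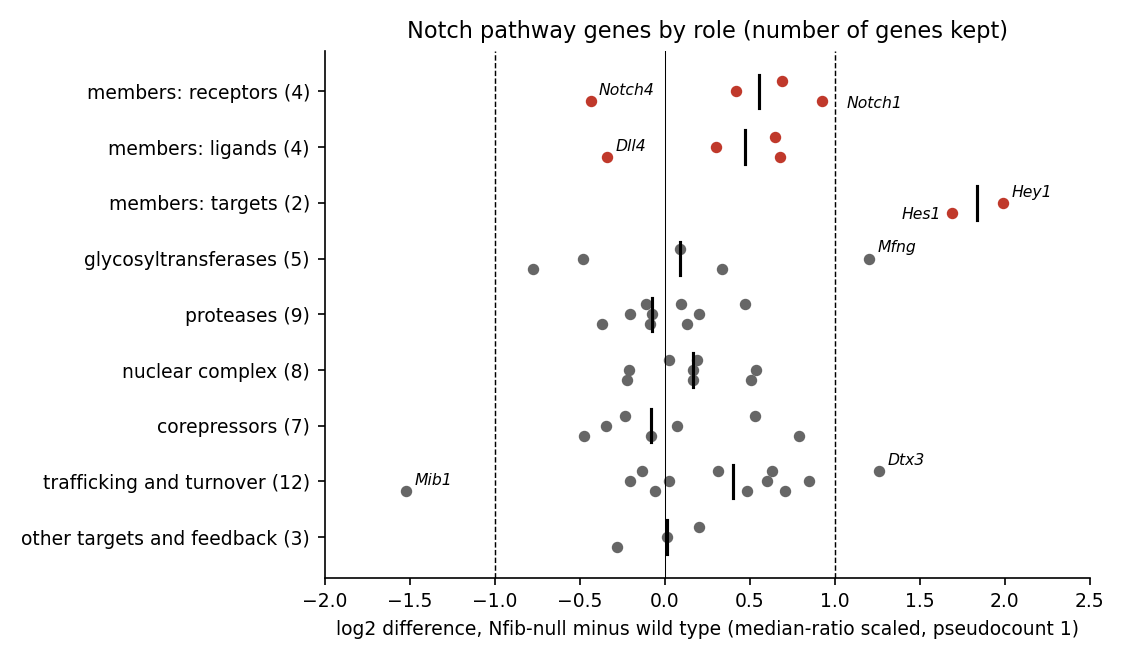
Points are log2 differences (Nfib-null minus wild type, median-ratio scaled, pseudocount 1) of the genes kept, by role, with the number of genes in brackets; black ticks are medians and dashed lines mark 2-fold. The target members lie beyond the upper line, Mfng (1.20) and Dtx3 (1.26) follow, Mib1 (−1.52) lies beyond the lower line, and proteases and corepressors centre near 0.

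The glands held RNA of many cell types, and in whole tissue fewer cells of a type and less RNA per cell cannot be told apart. The summed level of 12 luminal epithelial markers was 1932 RPKM in Nfib-null glands and 916 RPKM in wild-type glands, a ratio of 2.11. Of the 12, 4 were at least 2-fold higher and 0 lower, where 6.95% and 5.97% of all genes were. Ratios of summed levels are unscaled here and below, and the median unscaled log2 ratio over the genes kept was 0.41. Counts of higher and lower markers use the scaled differences. The 5 luminal progenitor genes summed to 1066 RPKM in Nfib-null and 796 RPKM in wild-type glands, a ratio of 1.34. Their median log2 difference, 2.68, was the highest of the 10 marker lists. Of these 5 genes, 3 were higher and 1, Elf5, was lower. The unscaled ratio of Nfib-null to wild-type values was 11.2 for Kit, 11.0 for Aldh1a3, 8.61 for Cd14, 2.78 for Itga2 and 0.451 for Elf5. All 5 milk protein genes summed above were lower, as were 5 of 7 lymphocyte markers, whose sum was 9.80 RPKM in Nfib-null and 24.0 RPKM in wild-type glands. Summed levels were 5.12-fold higher for 6 adipocyte markers (7282 RPKM in Nfib-null and 1423 RPKM in wild-type glands, 5 of 6 higher), 3.73-fold higher for 8 fibroblast markers (1671 RPKM in Nfib-null and 448 RPKM in wild-type glands, 8 of 8) and 3.44-fold higher for 7 macrophage markers (436 RPKM in Nfib-null and 127 RPKM in wild-type glands, 7 of 7). The unscaled ratio was 4.77 for Hes1 and 6.63 for Hey1. The ratio of Hes1 lay between those of the fibroblast and adipocyte sums and that of Hey1 above both sums. Fabp4, with a ratio of 4.92, made up most of the adipocyte sum (5819 RPKM in Nfib-null and 1183 RPKM in wild-type glands). Taken singly, the adipocyte markers Cidec (7.25) and Lep and the luminal marker Cldn4 (6.67) had larger ratios than Hey1. The remaining adipocyte and luminal markers had smaller ratios than Hey1. The progenitor markers Kit, Aldh1a3 and Cd14 had larger ratios than either target. The part of these cell types in the level of Hes1 and Hey1 was not tested.

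Notch4 and Dll4, known best from endothelium, were set beside vessel markers. Which cells their reads came from was not tested. The 14 endothelial markers summed to 334 RPKM in Nfib-null glands and 230 RPKM in wild-type glands, a ratio of 1.45, and 0 of 14 differed by 2-fold (median log2 0.12). Pecam1 was at 43.2 RPKM in Nfib-null and 33.4 RPKM in wild-type glands, Cdh5 at 47.3 RPKM in Nfib-null and 40.4 RPKM in wild-type glands, Tek at 10.2 RPKM in Nfib-null and 5.73 RPKM in wild-type glands and Kdr at 21.2 RPKM in Nfib-null and 19.4 RPKM in wild-type glands. The 6 mural markers summed to 97.7 RPKM in Nfib-null and 63.1 RPKM in wild-type glands, a ratio of 1.55, and the 9 basal and myoepithelial markers to 1129 RPKM in Nfib-null and 687 RPKM in wild-type glands, a ratio of 1.64, with 0 beyond 2-fold in either list. Of all genes, 12.9% were beyond 2-fold in either direction, and a count of 0 in lists this small is near that share. Without the pseudocount, the endothelial marker Vwf (log2 1.08) and the mural marker Cspg4 (1.24) were beyond 2-fold. Per unit of the endothelial sum, Notch4 was 0.632-fold and Dll4 0.672-fold the wild-type level. Per unit of the mural sum, Notch3 was 1.17-fold. No marker of these 3 lists was at 0.

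The differences of the receptors and ligands depended on the scaling. With values as deposited 6 of the 10 members were at least 2-fold higher, against 14.4% of all genes, adding Notch1 (1.31), Notch2 (1.04), Jag1 (1.04) and Dll1 (1.01). With the columns scaled to the luminal epithelial markers, the median of the members was 0.035 and that of all genes −0.61. On that scale Notch2 (0.075), Jag1 (0.056) and Dll1 (0.014) lay near 0, Notch3 (−0.26) and Jag2 (−0.34) changed sign, and Notch4 (−1.01) was at least 2-fold lower, where 24.9% of all genes were. Hes1 (1.03) and Hey1 (1.38) were at least 2-fold higher there too, where 1.77% of all genes were. With scaling to the endothelial markers, 2 members were at least 2-fold higher, against 5.64% of all genes, Notch4 differed by −0.54 and Dll4 by −0.44.

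**Figure D5:**
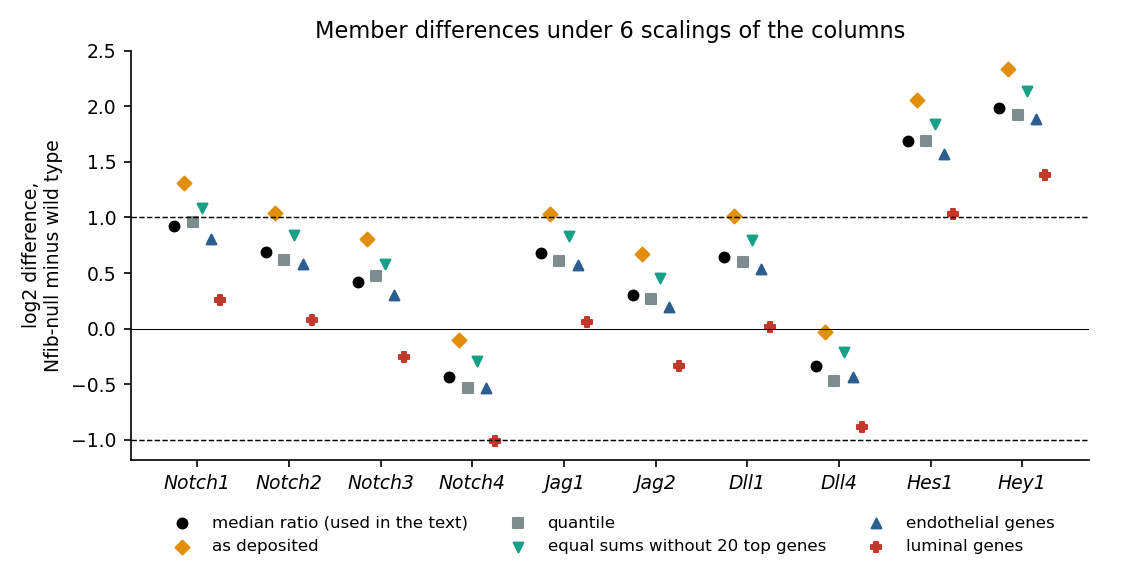
log2 differences (Nfib-null minus wild type, pseudocount 1) of each member under 6 ways of scaling the columns, with dashed lines at 2-fold. Hes1 (1.03 to 2.06) and Hey1 (1.38 to 2.33) lie above the upper line under each of the 6, and Notch4 and Dll4 lie below 0 under each.

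Counts without strand information cannot separate genes that overlap on opposite strands, and the use of strand is not stated in the labels. In the GENCODE annotation, exons of Dll1, Dll4, Notch1 and Notch3 overlap annotated transcripts on the opposite strand. The partner of Dll4, Gm14207, was at 0.419 RPKM in Nfib-null and 0.530 RPKM in wild-type glands. Notch2 overlaps Gm42820 on its own strand. No exon overlap was annotated for Hes1, Hey1, Notch4, Jag1 or Jag2.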

How the data were processed

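Poly(A) RNA of 5 mammary gland samples was sequenced on an Illumina HiSeq instrument from TruSeq RNA libraries, per the labels' protocols. Reads were processed with CASAVA and TopHat on mm9, per the submitters' processing notes. How reads were counted, on which annotation and with which denominator is not given in the sources used here. The authors deposited RPKM per the file headers, as 1 group mean per gene. At 100 RPKM or more, 0 of 544 Nfib-null values and 8 of 489 wild-type values were tied with another gene, as a rank-based normalization can give. No member's value was tied, but such a step would make wild-type values and depths approximate.

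A minimum mean of 1 RPKM (group means weighted by 3 and 2 libraries) kept 12511 of 22609 genes. Columns were divided by 1.15 (Nfib-null) and 0.867 (wild type). A pseudocount of 1 was used, and higher or lower means at least 2-fold. limma was planned for the case of library values and could not be run on group means, so no p-value or SD is given. Steps for depth used 208 (Nfib-null) and 228 (wild type) genes with 1 GENCODE M21 transcript. The functions were tested on simulated data. Python 3.11.15, pandas 2.3.3, scipy 1.17.1 and matplotlib 3.10.9 were used.

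The members and lists were chosen with earlier results of these data known. The rule for named genes was all members, pathway genes past 2-fold, up to 2 of highest mean per role, and Pecam1, Cdh5, Tek and Kdr. The further ligands and decoys were all named. Other pathway genes picked out once their values were known are so marked. Single luminal, luminal progenitor and adipocyte markers, such as Krt8, Epcam and Kit, were named outside that rule, with their values known. The same holds for Vwf and Cspg4.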

Additional observations from a re-analysis of the deposited data

How the results depend on the processing

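No paired analysis was possible because the table holds group means and no values per library. Leaving out each library could not be run for the same reason. Hes1 and Hey1 were at least 2-fold higher under each alternative with that limit, from 1.03 to 2.06 and from 1.31 to 2.33 on the log2 scale, and no member called at 2-fold turned to the opposite sign. Scaling to adipocyte, fibroblast or macrophage markers was not among the alternatives. Per unit of the adipocyte sum, Hes1 in Nfib-null glands was 0.932-fold the wild-type level, and so slightly lower. Per unit of the fibroblast sum it was 1.28-fold and per unit of the macrophage sum 1.39-fold. Hey1 was higher per unit of each of these sums, but by less than 2-fold. At the minimum of 5 RPKM, Notch4 and Dll4 were not kept.

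As deposited, 6 members, 5 pathway genes and 1800 of all genes were at least 2-fold higher and 369 of all genes lower, with medians of 1.02 (members) and 0.44 (pathway list), against 2, 2, 869, 747, 0.66 and 0.081 with median-ratio scaling. The median of all genes shifted by 0.35, and 83.0% of calls were higher instead of 53.8%. With columns of equal sum once the 20 most abundant genes were left out, the medians were 0.82 and 0.23 (shift 0.15, 68.3% of calls higher), and Notch1 reached 1.09. With luminal scaling 0 pathway genes and 222 of all genes were higher, and 1 member, 5 pathway genes and 3117 of all genes lower, with medians of 0.035 and −0.53 (shift −0.61, 6.65% of calls higher). With endothelial scaling the medians were 0.55 and −0.031 (shift −0.11, 43.1% of calls higher). With a pseudocount of 0.1, 1313 of all genes were higher. With a pseudocount of 5, 1 pathway gene (Dtx3) and 346 of all genes were higher, 444 of all genes were lower and the median of the members was 0.45.

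At a limit of 1.5-fold, 6 members, 7 pathway genes and 2145 of all genes (17.1%) were higher, and 2 pathway genes and 1833 of all genes lower. At 4-fold, 0 members, 0 pathway genes and 91 of all genes (0.727%) were higher, and 0 pathway genes and 154 of all genes lower. The cause was not tested. Counting error is widest for the wild-type value of Hey1, at about 201 reads. In the 200 bases nearest the start, TTGGC stood in 4 of the 9 windows (44.4%), against 35.2% of all.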
